A study of Saccharomyces cerevisiae with 6 samples.

Results

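The 10 histone deacetylase genes of budding yeast (Saccharomyces cerevisiae) were followed from log-phase growth to quiescence by RNA-seq. They are the members of the family by gene name, and the family was taken up with earlier results of these data known: RPD3, HDA1, HOS1, HOS2 and HOS3, whose products are the classical zinc-dependent enzymes, and SIR2, HST1, HST2, HST3 and HST4, whose products are the NAD+-dependent sirtuins. All 10 were found among 9891 rows of the count table, of which 6007 were protein-coding. Log-phase cells, harvested at an OD600 of 0.8 to 1.0, gave 3 libraries. The other 3 libraries came from quiescent cells, which are the dense fraction of stationary cultures at day 7, purified on density gradients. Every library came from the haploid MATa strain YCH406, grown at 30 C in rich medium with added adenine and ampicillin. The strain carries (hta1-htb1)∆::LEU2 and (hta2-htb2)∆::TRP1, so that its histones H2A and H2B come from the plasmids pSAB6 (HTA1-HTB1-URA3) and pZS145 (HTA1-Flag-HTB1::HIS3). It also carries his3∆200, leu2∆1, ura3-52, trp1∆ and the tagged polymerase gene RPB3-9Myc::hphNT1. Log and quiescent cells share all of these alleles, and no strain with chromosomal H2A and H2B genes was compared.

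Histone deacetylases remove acetyl groups from lysines in the histone tails and core, which generally favours a closed and less transcribed chromatin. Most act inside larger complexes that recruit them to chosen genes, and the sirtuins consume NAD+ in the reaction, which ties them to metabolism. Rpd3 is known from other work for its part in the low histone acetylation and low transcription of quiescent yeast, and Sir2 for silencing at the mating-type loci, telomeres and ribosomal DNA and for its effect on lifespan. The present data measure transcripts only, not protein, enzyme activity or acetylation.

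The libraries held 8894585 to 14213993 counts. Protein-coding rows held 64.1% to 72.1% of counts in log libraries and 28.1% to 41.4% in quiescent libraries. All 5 check genes of quiescence (HSP12, HSP26, SPG1, SPG4 and SNZ1) were higher in quiescent cells, with a median log2 fold change of 7.38. All 5 check genes of growth (RPL3, RPL5, RPS3, RPP0 and ENO2) were lower, with a median of -4.38. The mating type a genes MFA1, MFA2, STE2 and BAR1 were read in every log library and all 4 fell in quiescent cells, by 2.10 to 5.08 on the log2 scale. The alpha gene STE3, below the TPM minimum, had 33, 24 and 15 reads in log and 95, 74 and 84 in quiescent libraries. STE3 rose by 2.05 in the fit without a filter (edgeR adjusted p = 0.000558). The alpha gene MFALPHA2, which reached the minimum, did not pass (0.61, edgeR adjusted p = 0.0972). MFALPHA1, below the minimum, did not pass either without a filter (1.29, edgeR adjusted p = 0.279), and its groups overlapped. Rows of HTA2 and HTB2 held 77 to 161 reads a library although the genotype deletes this pair; both genes closely resemble the plasmid-borne HTA1 and HTB1. The labels call the replicates biological. In such bulk samples, fewer cells with a transcript and less transcript in each cell cannot be told apart.

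The upstream regions of the 3 genes whose transcripts moved farthest in the edgeR fits, HST2 upward and HST3 and HST4 downward, are shown. Many of the results below turn on these genes. Each runs 5′ to 3′ on the strand of its gene, in the R64 RefSeq genome, from 400 to 101 bases before the start codon. Capitals mark matches, on either strand, to AGGGG (the stress response element), AGGGAT (the core of the post-diauxic shift element), ACGCGT (the MCB element of G1/S genes) and GTAAACA (the forkhead motif). AGGGG and AGGGAT share their first 4 letters but cannot start at the same base.
HST2, chrXVI:526984-527283, minus strand: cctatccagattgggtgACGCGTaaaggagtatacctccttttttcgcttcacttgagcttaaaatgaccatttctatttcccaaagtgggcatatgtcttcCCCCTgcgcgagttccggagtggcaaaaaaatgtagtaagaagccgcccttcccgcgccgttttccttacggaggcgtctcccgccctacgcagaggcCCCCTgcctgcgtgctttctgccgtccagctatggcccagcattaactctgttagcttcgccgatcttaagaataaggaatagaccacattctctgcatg
HST3, chrXV:377819-378118, plus strand: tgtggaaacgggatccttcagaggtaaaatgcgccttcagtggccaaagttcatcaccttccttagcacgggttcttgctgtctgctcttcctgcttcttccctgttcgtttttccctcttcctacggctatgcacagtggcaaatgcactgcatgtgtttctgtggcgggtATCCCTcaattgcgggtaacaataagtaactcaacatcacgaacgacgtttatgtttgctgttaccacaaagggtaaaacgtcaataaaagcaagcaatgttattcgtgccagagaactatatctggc
HST4, chrIV:841937-842236, plus strand: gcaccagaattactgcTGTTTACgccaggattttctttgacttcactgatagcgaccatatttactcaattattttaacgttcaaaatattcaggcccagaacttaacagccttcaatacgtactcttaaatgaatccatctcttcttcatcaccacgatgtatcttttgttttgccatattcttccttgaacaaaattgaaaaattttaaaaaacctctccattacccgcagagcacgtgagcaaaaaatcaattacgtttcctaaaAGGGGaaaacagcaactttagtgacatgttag

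The HST2 region held AGGGG 2 times, as CCCCT, and ACGCGT 1 time. The HST3 region held AGGGAT 1 time, as ATCCCT, and the HST4 region held 1 AGGGG and 1 GTAAACA, the latter as TGTTTAC. The first 59 bases of the HST4 region lie within the divergent gene RVB1. Over the same window of all 10 genes, AGGGG was in 2, AGGGAT in 3 (HDA1, HOS3 and HST3), GTAAACA in 2 (HOS3 and HST4) and ACGCGT in 1. Among the windows of 6001 nuclear protein-coding genes, AGGGG was in 23.5%, AGGGAT in 9.73%, GTAAACA in 6.28% and ACGCGT in 3.95%. TAGCCGCC, the Ume6 binding site URS1, was in 0 of the 10 windows and in 1.5% of all. These matches are descriptions of letters and show no binding.

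The levels of the 10 transcripts covered a wide range, and the order changed between the states. In TPM, which divides counts by gene length, HST2 was highest in log cells at 18.4 ± 3.95 (SD, n = 3 here and below), followed by RPD3 at 12.1 ± 0.962, HST3 at 10.3 ± 2.92 and HST1 at 9.37 ± 0.745. HDA1, HOS2, SIR2 and HOS3 formed a middle group with means of 5.53 to 6.36 TPM, whose neighbours in the order overlapped in range. HST4 at 1.64 ± 0.200 and HOS1 at 1.06 ± 0.0448 TPM were lowest, and these did not overlap with each other. In quiescent cells HST2 stayed first at 22.6 ± 9.10 TPM and HST1 came second at 9.86 ± 3.11, ahead of HOS2 at 5.64 ± 1.11 and RPD3 at 4.77 ± 1.22. The first 7 genes in the quiescent order formed an unbroken chain of overlapping ranges, down to SIR2 at 2.28 ± 0.477 TPM. HST3 dropped to eighth place at 1.11 ± 0.488 TPM, with every library below those of SIR2. HOS1 at 0.792 ± 0.242 and HST4 at 0.334 ± 0.0846 TPM closed the list.

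**Figure D1:**
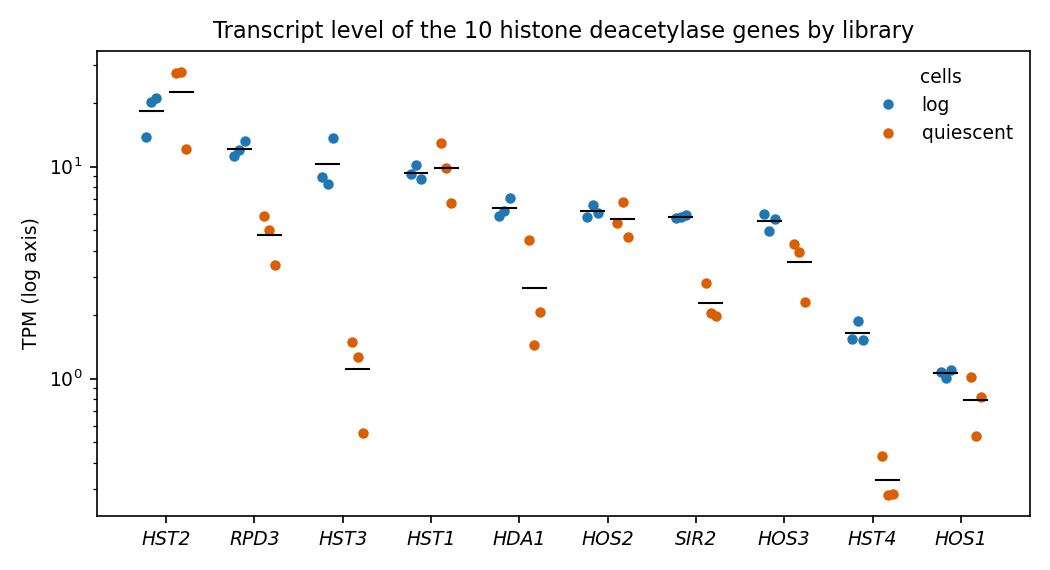
TPM on a log axis for each histone deacetylase gene in 3 log and 3 quiescent libraries, with points for libraries and bars for group means, ordered by the log-phase mean. HST3 drops from 10.3 to 1.11 TPM and the HST2 points of the groups overlap.

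Of the 8 genes that reached the minimum of a mean TPM of 1 and were tested, HST2, HST1 and HOS2 rose in quiescent cells, HST3 fell, and RPD3, HDA1, HOS3 and SIR2 did not pass. The test was the edgeR quasi-likelihood test with TMM scaling, two-sided, at an adjusted p of 0.05 (Benjamini-Hochberg, 7305 rows). Fold changes are quiescent minus log. Of all 5608 protein-coding genes tested, 31.8% rose and 41.0% fell, against 3 and 1 of 8 here. With TMM from protein-coding genes 35.9% of genes rose and 37.1% fell (4 and 1 of the 8), with total-count scaling 24.4% and 42.5% (2 and 1 of the 8), and with DESeq2 32.9% and 40.3% (3 and 1 of the 8). The median fold change of the 8 genes was 0.01 on the log2 scale, and that of all genes -0.21. Normalized CPM of the groups did not overlap for 6 of the 8, against 77.8% of all genes. HST4 and HOS1 lay just under the minimum, at mean TPM of 0.986 and 0.925, and are given from the fit without a filter.

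Among the classical enzymes, RPD3 (YNL330C, chromosome XIV, 18001 to 19302) encodes the catalytic subunit of the large and small Rpd3 complexes. Its normalized CPM was 32.5, 33.8 and 36.3 in the log libraries, given here and below by replicate number, and 26.9, 27.1 and 25.8 in the quiescent libraries. Every quiescent library was below every log library, but the difference did not pass (log2 fold change -0.36, SE 0.17, edgeR adjusted p = 0.0770). In the fit without a filter it passed at -0.51 (edgeR adjusted p = 0.0316).

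HOS2 (YGL194C, chromosome VII, 140368 to 141726), the catalytic subunit of the Set3 complex, is related to RPD3 in sequence. HOS2 had 17.4, 19.4 and 17.3 CPM in the log libraries and 26.1, 38.5 and 36.2 CPM in the quiescent libraries, without overlap. It rose by 0.90 (SE 0.20, edgeR adjusted p = 0.00267) under TMM scaling, missed the threshold at 0.64 with total-count scaling (adjusted p = 0.0607) and had a value of -0.12 on the TPM scale, limma on log2(TPM + 1) (limma adjusted p = 0.683). HOS1 (YPR068C, chromosome XVI, 682941 to 684353), known for deacetylating the cohesin subunit Smc3, had 48, 37 and 45 reads in the log libraries and 51, 36 and 62 in the quiescent ones. Its ranges overlapped and it did not pass (0.45, SE 0.37, edgeR adjusted p = 0.325 without a filter), and its mean TPM lay lower in quiescent cells.

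HDA1 (YNL021W, chromosome XIV, 593227 to 595347) encodes the catalytic subunit of the Hda1 complex. Its CPM was 27.5, 28.2 and 31.8 in log and 33.8, 12.7 and 25.01 in quiescent libraries. Quiescent replicate 2 was the low library and replicate 1 lay above all log libraries (log2 fold change -0.30, SE 0.31, edgeR adjusted p = 0.408). The value was 0.01 without quiescent replicate 2 and -0.64 without quiescent replicate 1 (edgeR adjusted p = 0.0873). HOS3 (YPL116W, chromosome XVI, 329606 to 331699), an enzyme that can act without partner subunits, had 27.9, 22.4 and 24.99 CPM in log and 32.0, 34.4 and 27.7 CPM in quiescent libraries. It did not pass (0.32, SE 0.18, edgeR adjusted p = 0.142), passed upward when TMM was taken from protein-coding genes (0.53, adjusted p = 0.0249), and had a value of -0.55 on the TPM scale (limma adjusted p = 0.0560).

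Under TMM scaling the members that moved farthest were sirtuin genes, HST2 upward and HST3 and HST4 downward, but the sirtuin gene SIR2 did not pass. HST4 comes from the fit without a filter, where HST2 was at 1.11 and HST3 at -2.42. The ranking depended on the scale: on the TPM scale RPD3 (-1.21), HDA1 (-1.09) and SIR2 (-1.06) moved farther than HST2. HST2 (YPL015C, chromosome XVI, 525810 to 526883) encodes a mostly cytoplasmic sirtuin that can also act on histone H4. It had 32.9, 47.0 and 47.8 CPM in the log libraries and 105, 125 and 74.4 CPM in the quiescent libraries. All quiescent libraries exceeded all log libraries (log2 fold change 1.25, SE 0.24, edgeR adjusted p = 0.000917). HST1 (YOL068C, chromosome XV, 200368 to 201879), the closest relative of SIR2 and a subunit of both the Set3 and the Sum1 complexes, had 31.0, 33.2 and 27.8 CPM in log and 69.2, 62.0 and 58.5 CPM in quiescent libraries. It rose by 1.04 (SE 0.17, edgeR adjusted p = 0.000391). Neither rise passed on the TPM scale, where HST2 was at 0.22 (limma adjusted p = 0.601) and HST1 at 0.03 (adjusted p = 0.936) and the groups overlapped. The TPM of HST2 was 27.7 and 28.0 in quiescent replicates 1 and 2 but 12.1 in replicate 3, below the log libraries at 13.8, 20.2 and 21.02.

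SIR2 (YDL042C, chromosome IV, 376757 to 378445) did not follow its paralog HST1. Its CPM was 21.4, 21.2 and 21.1 in log and 16.9, 14.2 and 19.1 in quiescent libraries. The groups did not overlap, but the difference did not pass (-0.34, SE 0.20, edgeR adjusted p = 0.143).

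HST3 and HST4 encode the sirtuins that deacetylate H3K56, a mark of newly made histone H3, after DNA replication. HST3 (YOR025W, chromosome XV, 378219 to 379562) had 26.7, 24.1 and 38.8 CPM in the log libraries and 7.08, 7.07 and 4.29 CPM in the quiescent libraries. It fell by 2.27 (SE 0.28, edgeR adjusted p = 4.71e-05), and 15.1% of all genes had a lower fold change. The fall also passed on the TPM scale (-2.42, limma adjusted p = 3.03e-07). HST4 (YDR191W, chromosome IV, 842337 to 843449) had 54, 54 and 49 reads in the log libraries and 17, 15 and 17 reads in the quiescent libraries. In the fit without a filter, where 40.9% of genes fell, HST4 fell by 1.44 (SE 0.40, edgeR adjusted p = 0.00818), with no overlap between the groups. So few reads leave its fold change imprecise.

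**Figure D2:**
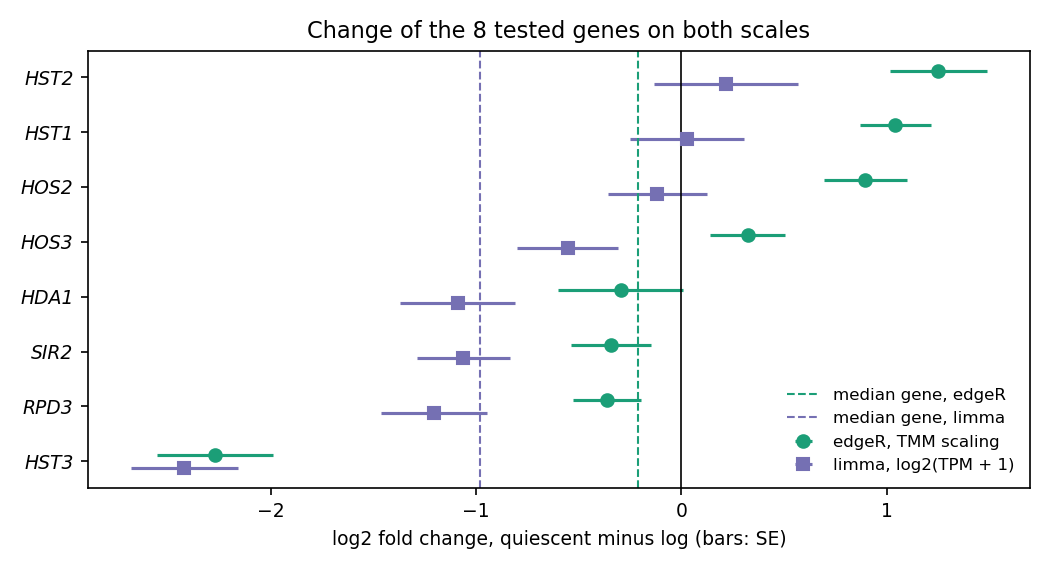
Log2 fold change, quiescent minus log, with SE bars for the 8 tested genes under edgeR with TMM scaling and limma on log2(TPM + 1), with dashed lines at the median of all genes on each scale (-0.21 and -0.98). The order runs from HST3 to HST2, and the gap of each gene to the median line is similar on both scales except for HST3.

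The calls depended on the scale, and for HOS2 and HOS3 the sign did too, negative on the TPM scale without passing. The cause was not tested. On the TPM scale the median gene was at -0.98, 14.2% of genes rose and 60.1% fell, and of the 8 members 0 rose and 4 fell, namely RPD3 (-1.21), HDA1 (-1.09), SIR2 (-1.06) and HST3. Each gene was therefore also placed relative to the median gene. Over 7 combinations of scaling and test, HST2 lay 1.20 to 1.51 above the median, HST1 1.01 to 1.27 above and HOS2 0.87 to 1.11 above. HOS3 lay 0.43 to 0.55 above it. RPD3 lay at -0.23 to -0.13, SIR2 at -0.13 to -0.08 and HDA1 at -0.11 to -0.03 of the median, and HST3 at -2.07 to -1.44. A change of scaling between libraries shifts all genes by nearly the same amount, which subtracting the median removes. Agreement among the count-based fits was thus largely fixed in advance, and only the TPM scale differed in kind. On the TPM scale HST2 lay 1.20, HST1 1.01 and HOS2 0.87 above the median gene, and RPD3, SIR2 and HDA1 lay near it.

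The makeup of the deacetylase transcripts, which does not depend on scaling between libraries, shifted toward HST2 and HST1. HST2 held 20.0%, 26.3% and 25.1% of the summed TPM of the 10 genes in the log libraries and 41.6%, 47.2% and 34.6% in the quiescent libraries. HST1 went from 12.3% ± 1.67 to 18.5% ± 1.56. RPD3 went from 15.8% ± 0.351 to 9.05% ± 0.740, SIR2 from 7.60% ± 0.620 to 4.44% ± 1.12, HDA1 from 8.30% ± 0.270 to 5.03% ± 2.30, HST3 from 13.3% ± 2.79 to 1.99% ± 0.348 and HST4 from 2.15% ± 0.313 to 0.649% ± 0.170. In all 7 of these shares the log and quiescent ranges were apart. Each gave a two-sided exact permutation p of 0.1, which is the lower limit for 3 libraries against 3, and 0.143 after Benjamini-Hochberg adjustment over 10 shares. The shares of HOS1, HOS2 and HOS3 overlapped between groups. A share can fall because another rises, so the 10 are not independent.

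**Figure D3:**
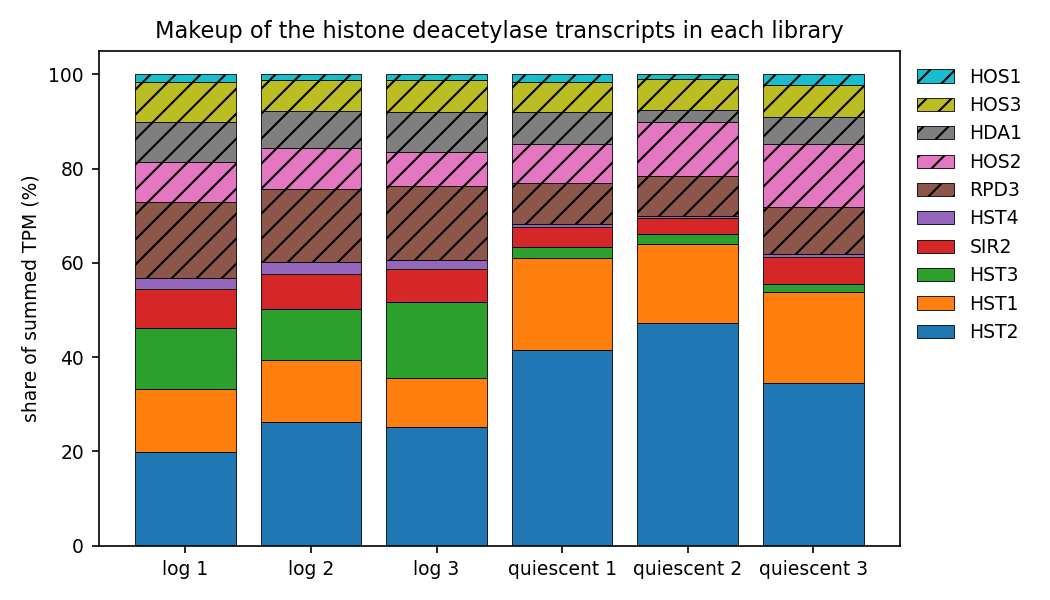
Share in percent of the summed TPM of the 10 genes in each library, with sirtuin genes unhatched at the bottom and classical genes hatched above. HST2 takes 34.6% to 47.2% in quiescent libraries against 20.0% to 26.3% in log libraries, and the HST3 band nearly closes.

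The 5 sirtuin genes together held 56.7%, 60.1% and 60.6% of this sum in log libraries and 68.2%, 70.0% and 62.0% in quiescent libraries. These ranges did not overlap, though quiescent replicate 3 lay close to the log libraries (exact permutation p = 0.1). The summed TPM of all 10 was 69.2, 77.1 and 83.8 in log and 66.5, 59.2 and 34.9 in quiescent libraries, again with quiescent replicate 3 lowest. Most of that difference lay in the classical genes, at 31.2 ± 1.59 and 17.4 ± 3.96 TPM without overlap (exact permutation p = 0.1). The sirtuin sum was 45.5 ± 5.79 and 36.1 ± 12.7 TPM with overlap (exact permutation p = 0.4). These sums are on the TPM scale, where the median gene was at -0.98 and 60.1% of all genes fell. No loss particular to the deacetylases is read from them.

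Related members were set against each other within libraries, over 5 pairs chosen with earlier results known. The log2 ratio of HST1 to SIR2 was 0.69 ± 0.12 in log and 2.08 ± 0.27 in quiescent cells. That of HOS2 to RPD3 was -0.98 ± 0.13 and 0.26 ± 0.31, so that HOS2 was below RPD3 in all log libraries and above it in 2 of 3 quiescent ones. Neither pair overlapped between groups (exact permutation p = 0.1, the smallest possible, and 0.25 adjusted over 5 pairs). The ratios of HST4 to HST3 (exact permutation p = 0.2), HOS3 to HDA1 (exact permutation p = 0.2) and HST1 to HOS2 (exact permutation p = 0.8) overlapped. HST1 and HOS2, which share the Set3 complex, differed by 0.61 ± 0.08 in log and 0.77 ± 0.41 in quiescent cells on this log2 scale.

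Reads of close relatives can be confused in counting, which was checked on the R64 sequence. RPD3 and HOS2 were 56.7% identical and SIR2 and HST1 60.3% identical over aligned bases, and the longest identical run within either pair was 14 bases. No 30-base word of any of the 10 genes occurred elsewhere in the genome (0 of 1660 words for SIR2 and 0 of 1483 for HST1). None of the 10 spans overlapped another gene of the reference. The positions of unannotated transcripts in the table were not used here, and strand and counting tool are unknown, so reads of antisense or overlapping unannotated transcripts could be part of the printed counts of any gene.

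Genes whose products join the deacetylases in complexes more often rose than fell under TMM scaling. Of 31 partner genes, 17 rose and 7 fell (median 0.54 on the log2 scale, against -0.21 for all genes and with 31.8% of all genes risen and 41.0% fallen). The count of risen partners was 10 without log replicate 1 and also 10 when no filter was used, where 27.6% of all genes rose. It was 9 with total-count scaling, where 24.4% of all genes rose. On the TPM scale 3 rose and 9 fell, beside 14.2% and 60.1% of all genes. The median there was -0.37 against -0.98 for all genes.

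Of 17 genes of the Rpd3 complexes 10 rose and 3 fell, beside 31.8% and 41.0% of all genes. Without a filter 7 rose and 3 fell, and on the TPM scale 3 rose and 4 fell, where 14.2% and 60.1% of all genes did. The risen members of largest change were ECM5 (2.41, SE 0.31), which with the product of SNT2 links Rpd3 to stress-responsive promoters, DOT6 (2.08, SE 0.26), a repressor of ribosome biogenesis genes that recruits Rpd3, and EAF3 (1.93, SE 0.17), the subunit of the small complex that binds methylated H3K36. EAF3 went from 27.0 ± 1.98 to 103 ± 5.54 CPM (edgeR adjusted p = 3.98e-06), and rose on the TPM scale as well, as did ECM5 and DOT6, the latter with overlapping TPM ranges. UME6, which recruits the large complex to meiotic genes and was picked after its values were seen, rose by 1.28 (SE 0.23). The fallen members were SAP30 (-1.24, SE 0.36) and ASH1 (-0.58, SE 0.20) of the large complex and SIN3 (-1.0, SE 0.18), the scaffold shared by both complexes. SIN3 went from 193 ± 13.1 to 96.4 ± 12.1 CPM, while RPD3 itself stood at 34.2 and 26.6 CPM. On the TPM scale, where the median gene was at -0.98, both fell. There SIN3 went from 19.3 ± 0.978 to 4.92 ± 1.65 TPM, and RPD3 stood at 12.1 and 4.77 TPM.

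The Set3 complex holds HOS2 and HST1 with 5 further proteins, and 4 of these 5 genes rose, beside 31.8% of all genes. Without a filter 2 of the 5 rose, beside 27.6% of all genes. Those that rose with the filter were HOS4 (1.18, SE 0.22), SNT1 (1.12, SE 0.18), SIF2 (0.66, SE 0.21) and SET3 (0.63, SE 0.22), the last encoding a protein that binds methylated H3K4. None of these 4 passed on the TPM scale, where they lay at -0.27 to 0.14, all above the median gene at -0.98. CPR1, an abundant proline isomerase with many roles outside the complex, fell from 1098 ± 137 to 316 ± 52.0 CPM (-1.80, SE 0.23). The Sum1 complex, through which HST1 represses genes of middle sporulation and of NAD+ synthesis, had SUM1 at 0.49 (SE 0.17, edgeR adjusted p = 0.0300) and RFM1 at 0.51 (SE 0.32, adjusted p = 0.186), and neither rose without a filter or on the TPM scale. In the Hda1 complex, HDA2 fell by 0.82 (SE 0.25) and HDA3 did not pass (-0.17, SE 0.35), while both fell on the TPM scale.

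Of the 5 partner genes of Sir2, 2 rose and 2 fell, beside 31.8% and 41.0% of all genes. Without a filter 1 rose and 2 fell, beside 27.6% and 40.9% of all genes. SIR1 (1.31, SE 0.26) and SIR4 (0.61, SE 0.18), which act at silent mating-type loci and telomeres, rose, and SIR3 did not pass (0.41, SE 0.20, edgeR adjusted p = 0.0946). NET1 (-2.06, SE 0.18) and CDC14 (-2.29, SE 0.24), whose products share the nucleolar RENT complex with Sir2, fell. NET1 went from 231 ± 20.0 to 55.2 ± 2.28 CPM. On the TPM scale NET1 and CDC14 fell too, and SIR1, SIR3 and SIR4 did not pass. TUP1 (-2.84, SE 0.19) and CYC8 (-1.65, SE 0.18), the general corepressor that recruits several deacetylases, fell on each of these scales.

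**Figure D4:**
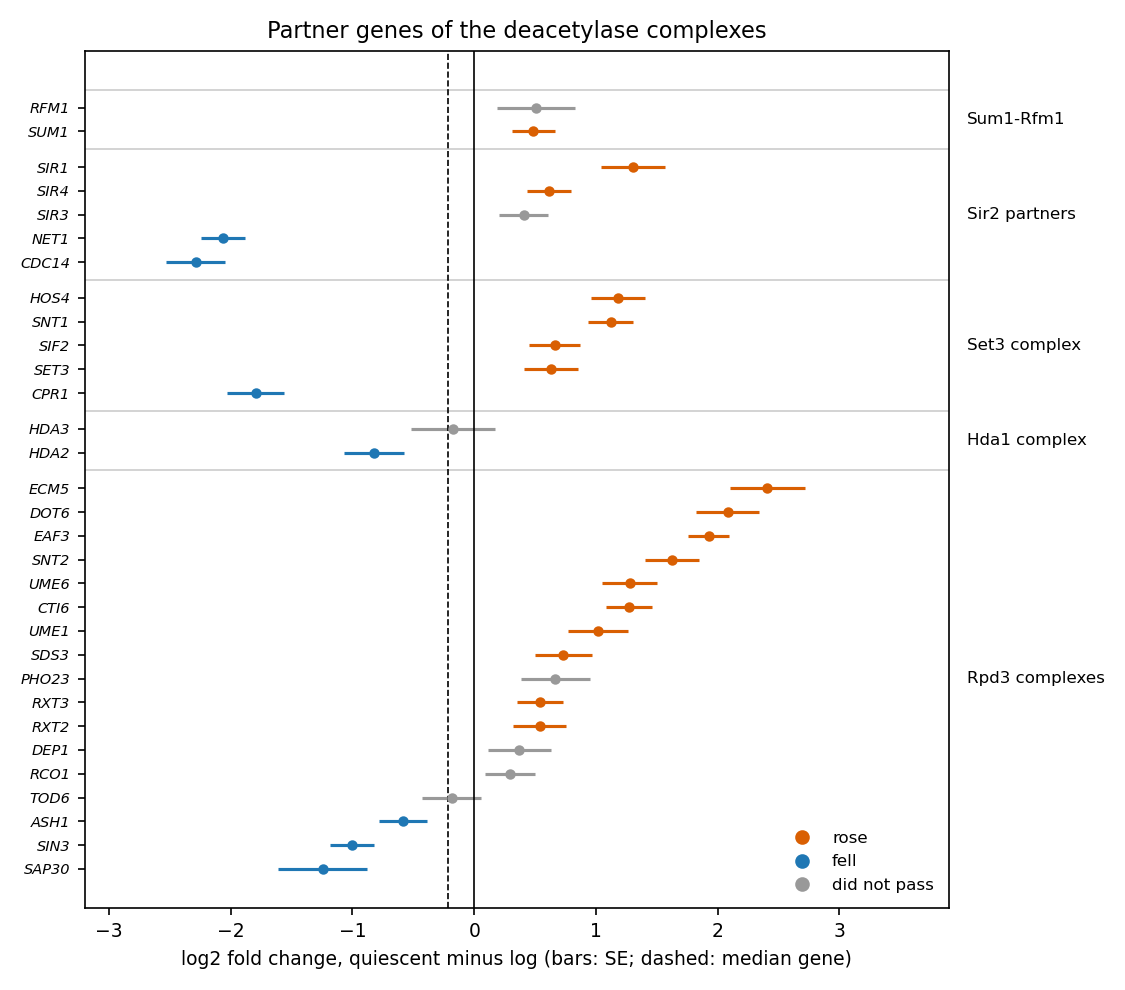
Log2 fold change, quiescent minus log, with SE bars for the 31 partner genes by complex, with a dashed line at the median gene (-0.21) and colours for genes that rose, fell or did not pass. NET1 and CDC14 lie near -2 apart from the other Sir2 partners, and CPR1 apart from the other Set3 genes.

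Of 3 genes for placing the mark that HST3 and HST4 remove, 2 fell under TMM scaling, beside 41.0% of all genes. The acetyltransferase gene RTT109 went from 6.88 ± 0.599 to 2.22 ± 0.959 CPM (-1.63, SE 0.38) and its chaperone gene VPS75 from 14.2 ± 0.862 to 3.01 ± 1.42 CPM (-2.25, SE 0.37). ASF1, whose product presents H3 to the enzyme, did not pass (-0.49, SE 0.31, edgeR adjusted p = 0.187). All 3 fell on the TPM scale, where 60.1% of all genes fell.

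Genes for NAD+, the cosubstrate of the sirtuins, went in both directions, with 6 risen and 5 fallen of 17, beside 31.8% and 41.0% of all genes. BNA2, the first enzyme of synthesis from tryptophan, rose most (4.61, SE 0.24), from 3.08 ± 0.812 to 75.6 ± 3.12 CPM, followed by BNA5 (1.72, SE 0.32) of the same route. PNC1, which clears the sirtuin inhibitor nicotinamide, rose by 1.51 (SE 0.32), with log libraries spread at 59.7 ± 25.8 CPM. PNP1 (-4.21, SE 0.29) and NRK1 (-2.89, SE 0.36) of nicotinamide riboside salvage and BNA3 (-2.13, SE 0.33), a kynurenine aminotransferase gene, fell. On the TPM scale 1 of the 17, BNA2, rose and 9 fell, beside 14.2% and 60.1% of all genes. Nothing particular to these genes as a group is read from the counts.

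Genes known as targets of these deacetylases were counted as well. Of 17 genes repressed by Ume6 and Rpd3 during growth, 9 reached the TPM minimum, and 6 of these rose, beside 31.8% of all genes. In the fit without a filter 6 of the 17 rose, beside 27.6% of all genes. The 3 of largest change were the meiotic recombinase gene DMC1 (5.59, SE 0.31), the inositol synthesis gene INO1 (4.27, SE 0.41) and the meiotic kinase gene MEK1 (3.31, SE 0.57). Of 9 middle sporulation genes repressed by Sum1 and Hst1, 2 reached the minimum and NDT80, the activator of that programme, rose (1.33, SE 0.37) with overlap between the groups. Without a filter 5 of the 9 rose and 0 fell, beside 27.6% and 40.9% of all genes. Among those risen, SPR3, CDA1 and CDA2 had only 2 to 14 reads a library in log and 14 to 56 in quiescent cells. On the TPM scale NDT80 did not pass (0.24, limma adjusted p = 0.524). SMK1, the other gene that reached the minimum, fell on that scale (-0.98, limma adjusted p = 0.0108). Of the Sir-silenced genes, HMLALPHA2 rose from 2.67 ± 0.878 to 7.63 ± 1.21 CPM (1.51, SE 0.36) but did not pass on the TPM scale at 0.38. Its sequence is shared in part with the a2 genes, so the source of its reads is uncertain. HMLALPHA1 had 0 to 9 reads a library and the telomere-proximal YFR057W 1 to 5, too few to compare. Many targets were nearly silent in log cells, so a gene could reach the TPM minimum through its quiescent values alone.

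The genes closest in pattern to HST2, by the root mean square difference of centred log2 CPM over the 6 libraries among 5600 genes, were YIA6 (0.0841), PDR11 (0.107) and PET100 (0.118). Those closest to HST3 were DRS1 (0.0608), GCD11 (0.0753) and VMA11 (0.105). With 6 libraries in 2 groups, this likeness mainly reflects an equal fold change. DRS1 went from 84.2 ± 20.7 to 16.9 ± 3.68 CPM and YIA6 from 9.87 ± 1.21 to 24.0 ± 4.83 CPM.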

How the data were processed

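RNA was depleted of ribosomal RNA and sequenced on an Ion Proton instrument, per the labels' protocols. The authors deposited raw read counts and a feature length per row, per the file headers. Per the submitters' processing notes the build was R64; for the aligner, counting tool and strand the entry is: not given in the sources used here. A further 6 columns of per-sample values, the deposited TPM, were not used: TPM was computed from the counts and lengths. No row carried an ERCC name (0 rows), so the spike-ins were not used.

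Testing covered the 7305 rows, 5608 of them genes, whose mean TPM reached 1, with edgeR 4.0.16 in R 4.3.3. CPM are TMM-normalized, and SE is the absolute fold change over the root of F. The biological coefficient of variation was 0.264. Limma 3.58.1 on log2(TPM + 1), called the TPM scale, and DESeq2 1.42.0 were alternatives. The fits were also run on simulated counts with few changed rows, balanced up and down. These lack the shift in protein-coding share seen here, so they cannot judge the scaling. Shares and ratios were compared by exact two-sided permutation. Identity came from Biopython 1.88 global alignments. The members and gene lists were chosen with earlier results of these data known. All members and all genes of short lists are named; from longer lists, the 3 called genes of largest rise and of largest fall.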

Additional observations from a re-analysis of the deposited data

How the results depend on the processing

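HOS2, HST1, HST2 and HST3 passed the test in the same direction in all 6 fits that left out a library, and with median-of-ratios size factors, both other TMM scalings, DESeq2 and the replicate number as a block. HOS2 reversed without passing on log2(TPM + 1) (-0.12) and log2(TPM + 0.1) (-0.14). The number of deacetylase genes risen was 3, and 3 in every fit without a library; it was 0 with either TPM pseudocount and 1 with a minimum of 10 TPM, which left HST2 alone. The number fallen was 1, and 1 in every fit without a library; it was 4 with either TPM pseudocount, 3 without a filter (HST3, HST4 and RPD3) and 0 at 10 TPM. Partner genes risen numbered 17 and ranged from 10 to 17 without a library; they were 9 with total-count scaling, 3 with either TPM pseudocount, 10 without a filter and 2 of 5 tested at 10 TPM. Partner genes fallen numbered 7, ranged from 5 to 7 without a library and were 3 at 10 TPM. The cause of these shifts was not tested, apart from the fewer genes tested at 10 TPM. Of all genes, 31.8% rose and 41.0% fell in the main fit. The shares were 27.6% and 40.9% without a filter, where all 10 members were tested. They were 24.4% and 42.5% with total-count scaling and 14.2% and 60.1% on log2(TPM + 1). All-gene shares were not counted for fits without a library, log2(TPM + 0.1), 10 TPM or the replicate block.

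The sirtuin share rose by 7.56 percentage points (5.94 to 9.93 without a library) and the HST2 share by 17.4 (14.3 to 20.6 without a library). Same-numbered libraries did not deviate together (correlations 0.104, -0.138 and -0.132), so the numbers were not taken as pairs. With a replicate block, 3 deacetylase genes rose and 1 fell, and 14 partner genes rose and 7 fell. Low depth limits HST4 and HOS1, and no share or ratio can reach a p under 0.1 with 3 libraries a group.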
